A study of Rattus norvegicus with 18 samples.

Results

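The described genes are 10 chaperones, folding enzymes and targets of the unfolded protein response (UPR) of the endoplasmic reticulum (ER): Hspa5, Hsp90b1, Dnajb9, Sdf2l1, Pdia4, Fkbp11, Herpud1, Xbp1, Manf and Creld2. They were chosen by symbol, and all 10 were found among the 17312 genes of the deposited expression table. RNA was sequenced from neonatal rat ventricular myocytes, heart muscle cells cultured from Sprague-Dawley pups at day 2 and kept in serum-free medium before treatment. The groups were SR9009 followed by 0, 4 or 48 h of phenylephrine, and vehicle followed by 0, 4 or 48 h of phenylephrine, with 24 h of SR9009 or vehicle given first. SR9009 is a synthetic agonist of the REV-ERB nuclear receptors, which repress transcription, and phenylephrine (PE) is an adrenergic agonist used to make cardiomyocytes hypertrophic. Each group had 3 libraries, which the authors combined into a single FPKM value (fragments scaled to transcript length and to library size) for each gene and group, flanked by a pair of confidence bounds. No group was cultured for 4 or 48 h without PE, so within an arm PE and time in culture cannot be told apart.

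The UPR adjusts the folding capacity of the ER to its load. Unfolded proteins draw the chaperone BiP away from sensors in the ER membrane. IRE1 then splices Xbp1 mRNA so that it encodes an active transcription factor, ATF6 is cut to release another, and PERK slows translation while favouring that of ATF4. XBP1 and ATF6 act through ER stress response elements in the promoters of chaperone, folding and degradation genes. Gene-level FPKM does not separate spliced from unspliced Xbp1.

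Because members of such a group are classically linked by promoter elements, the 250 bases upstream of the RefSeq gene starts (assembly GRCr8) were searched on both strands. The letters searched were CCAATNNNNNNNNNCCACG (ERSE), ATTGGNCCACG (ERSE-II, whose first bases are CCAAT on the other strand) and TGACGTG (the core of the UPR element). Of the 10 genes, 9 had a window in the RefSeq table. ERSE was found in 4 of them, Hspa5, Hsp90b1, Creld2 and Xbp1, and in 0.0657% of all 33469 windows. ERSE-II was found in Herpud1 and in 0.0418% of windows, and TGACGTG in Hspa5 and in 1.54% of windows. These matches describe letters and do not show binding. The windows of 3 genes with an element are printed in full, followed by those of Dnajb9 and Fkbp11, which held none of these letters and varied most between groups. Capitals mark ERSE or ERSE-II, and each line reads 5′ to 3′ on the strand of the gene.
Hspa5 (GRCr8, chr3:38452766-38453015, plus strand): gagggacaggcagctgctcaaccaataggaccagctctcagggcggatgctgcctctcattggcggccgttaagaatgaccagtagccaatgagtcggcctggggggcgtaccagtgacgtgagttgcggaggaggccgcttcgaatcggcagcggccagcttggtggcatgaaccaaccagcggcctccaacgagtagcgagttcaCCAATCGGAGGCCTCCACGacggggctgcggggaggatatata
Hsp90b1 (GRCr8, chr7:23012294-23012543, minus strand): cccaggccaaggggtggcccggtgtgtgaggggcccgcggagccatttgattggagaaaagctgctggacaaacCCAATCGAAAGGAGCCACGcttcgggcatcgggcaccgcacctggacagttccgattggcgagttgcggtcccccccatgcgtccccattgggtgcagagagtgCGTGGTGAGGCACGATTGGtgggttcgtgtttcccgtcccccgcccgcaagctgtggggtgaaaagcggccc
Herpud1 (GRCr8, chr19:10614708-10614957, minus strand): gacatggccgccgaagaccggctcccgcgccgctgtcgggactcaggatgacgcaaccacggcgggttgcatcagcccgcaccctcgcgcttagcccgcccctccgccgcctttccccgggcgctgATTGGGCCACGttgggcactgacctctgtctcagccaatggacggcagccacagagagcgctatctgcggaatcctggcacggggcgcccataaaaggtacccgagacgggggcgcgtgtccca
Dnajb9 (GRCr8, chr6:67002052-67002301, minus strand): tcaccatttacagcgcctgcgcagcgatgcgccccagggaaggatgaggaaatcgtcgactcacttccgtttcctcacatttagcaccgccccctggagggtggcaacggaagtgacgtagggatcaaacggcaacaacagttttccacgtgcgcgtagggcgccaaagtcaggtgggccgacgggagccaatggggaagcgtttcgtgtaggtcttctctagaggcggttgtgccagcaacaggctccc
Fkbp11 (GRCr8, chr7:131754262-131754511, minus strand): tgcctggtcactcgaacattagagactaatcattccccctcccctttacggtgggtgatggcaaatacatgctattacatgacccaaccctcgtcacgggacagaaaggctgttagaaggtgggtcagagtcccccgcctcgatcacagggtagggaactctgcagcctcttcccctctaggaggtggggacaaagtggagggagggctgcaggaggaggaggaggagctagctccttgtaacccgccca

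The ERSE of Hspa5 lay nearest to its start among these elements, 43 to 25 bases upstream. Hsp90b1 had 2, the first 176 to 158 bases upstream and the other, which reads backwards on the opposite strand, 72 to 54 bases upstream. The 19-base elements of Xbp1 and Creld2 are given for comparison with those above.
Xbp1 (65 to 47 bases upstream, chromosome 14): CCAATCGCAGACGGCCACG
Creld2 (145 to 127 bases upstream, opposite strand, chromosome 7): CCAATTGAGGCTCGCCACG

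Together the 10 genes made up 1679 FPKM at 0 h, 1061 FPKM at 4 h and 725 FPKM at 48 h of PE in the SR9009 arm, against 1205, 801 and 1109 FPKM at the same times in the vehicle arm. In the SR9009 arm the sum thus went down at each time, while in the vehicle arm it was lowest at 4 h. All 10 genes had their highest value in the same group, SR9009 at 0 h. Among 10385 genes with a value in all groups, 15.1% were highest there. Under each of the scalings and pseudocounts tried, all 10 were still highest there, against 14.8% to 23.0% of genes. The bounds of that group were clear of the next highest group in 3 of the 10 genes and overlapped it in 7. The share of all genes with such clear bounds was not computed, so this count describes the 10 genes only. The half-width of the authors' bounds was 12.2% to 26.0% of the value for these genes.

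**Figure D1:**
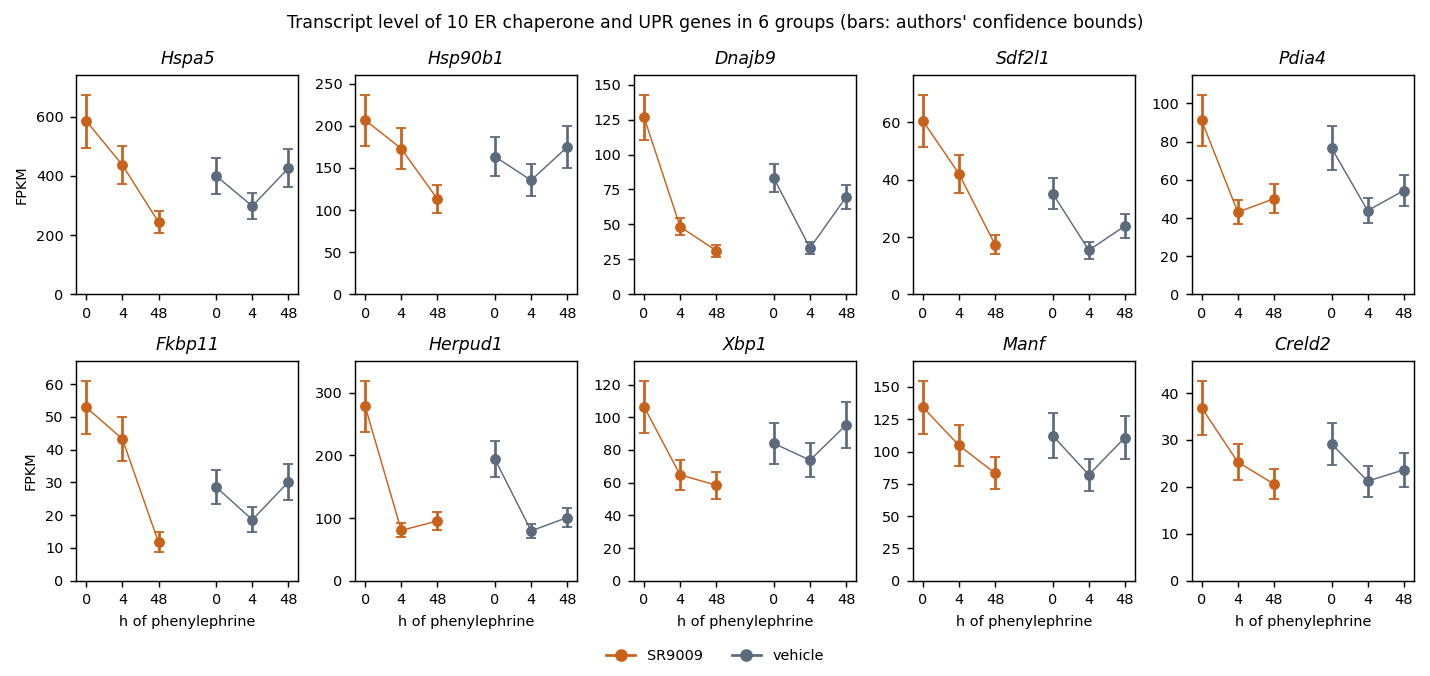
FPKM of each gene (vertical axis) at 0, 4 and 48 h of PE in the SR9009 arm (left, orange) and the vehicle arm (right, grey); points are the authors' group values and bars their confidence bounds. All 10 genes are highest with SR9009 at 0 h, and the vehicle arm is lowest at 4 h in each gene.

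Hspa5 encodes BiP, the main Hsp70-type chaperone of the ER and the most abundant of the 10 transcripts (chromosome 3, 13838304 to 13842763, rn6). In the SR9009 arm it had 585 FPKM (bounds 495 to 674) at 0 h, 437 (371 to 502) at 4 h and 244 (208 to 279.9) at 48 h. In the vehicle arm it had 399.6 FPKM (339.8 to 459) at 0 h, 298 (255 to 342) at 4 h and 426 (363 to 489) at 48 h. From high to low the groups formed a chain in which each overlapped its neighbour, so only groups further apart were separated. Hsp90b1, the ER member of the Hsp90 chaperones (chromosome 7, 27226570 to 27240533), had 207, 173 and 113 FPKM at 0, 4 and 48 h with SR9009, against 163, 135 and 175 FPKM with vehicle. Its order resembled that of Hspa5, with a narrower span of 1.83-fold between its highest and lowest group, against 2.40-fold for Hspa5.

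Dnajb9 encodes ERdj4, a J-domain partner of BiP that also restrains IRE1 (chromosome 6, 64165913 to 64170122). It had 127 FPKM (111 to 143) at 0 h, 48.4 (42.2 to 54.6) at 4 h and 31.3 (27.1 to 35.6) at 48 h with SR9009. With vehicle it had 83.0 FPKM (72.9 to 93.1), 33.2 (28.6 to 37.8) and 69.5 (60.9 to 78.2) at these times. The bounds of the 2 arms were clear of each other at each time, with SR9009 higher at 0 and 4 h and lower at 48 h. Sdf2l1, a luminal protein found in BiP complexes (chromosome 11, 88122271 to 88124513), had 60.5 FPKM (51.3 to 69.6), 42.0 (35.4 to 48.6) and 17.4 (14.1 to 20.6) at 0, 4 and 48 h with SR9009. With vehicle it had 35.1 FPKM (29.6 to 40.6), 15.4 (12.4 to 18.4) and 23.8 (19.8 to 27.9). SR9009 at 4 h was above vehicle at 4 h with a wide gap between the bounds, whereas the arms overlapped at 48 h.

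Fkbp11, a prolyl isomerase anchored in the ER membrane (chromosome 7, 140398254 to 140401686), varied most. It had 52.9 FPKM (44.8 to 61.0) at 0 h, 43.3 (36.4 to 50.1) at 4 h and 11.7 (8.67 to 14.8) at 48 h with SR9009, against 28.6 (23.3 to 33.9), 18.6 (14.8 to 22.5) and 30.1 (24.7 to 35.6) with vehicle. SR9009 was higher at 0 and 4 h and lower at 48 h, with no overlap of the arms at any time. The highest group was 4.52-fold above the lowest. Pdia4, a disulfide isomerase (chromosome 4, 77470636 to 77489535), had 91.1, 43.1 and 50.1 FPKM with SR9009, against 76.7, 43.9 and 54.4 FPKM with vehicle. Its arms overlapped at every time, and both were lower after PE than before.

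Herpud1 encodes HERP, an ER membrane protein of the degradation machinery (chromosome 19, 11046907 to 11057254). With SR9009 it had 278 FPKM (238 to 319), 80.3 (69.1 to 91.4) and 95.4 (81.1 to 109.6) at 0, 4 and 48 h. With vehicle it had 194 FPKM (165 to 222), 79.5 (68.2 to 90.8) and 101 (85.7 to 116). The arms were separated at 0 h only, and all groups given PE lay within 79.5 to 101 FPKM. Xbp1 (chromosome 14, 85753736 to 85758820) had 106, 64.8 and 58.5 FPKM with SR9009, against 84.0, 73.7 and 95.3 FPKM with vehicle. Its bounds were separated between the arms at 48 h, where SR9009 was lower.

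Manf and Creld2 encode ER proteins that stressed cells secrete. Manf (chromosome 8, 115624455 to 115626408) had 134, 105 and 83.3 FPKM with SR9009, against 112, 82.0 and 111 FPKM with vehicle. Creld2 (chromosome 7, 129812789 to 129819636) had 36.9, 25.3 and 20.6 FPKM with SR9009, against 29.2, 21.2 and 23.6 FPKM with vehicle. The arms overlapped at every time in both genes. No other locus of the table overlapped any of the 10 loci.

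Differences are given below on the log2(FPKM + 1) scale, which understates those of low genes. Parentheses hold the widest span of each difference permitted by the deposited bounds. With 1 value per group no test was possible and no p-value is given. A gene is called higher or lower where the difference is at least 1 (2-fold) and the range excludes 0. A second count takes every gene whose range excludes 0, whatever its size. In bulk RNA, fewer cells of a type and less RNA per cell cannot be told apart. All 10 cardiomyocyte markers were detected, with a summed level between 9143 and 18823 FPKM in the groups, against 1347 to 2595 FPKM for 10 fibroblast markers. Of the fibroblast markers, Col1a2 was listed at 0 in every group. The summed level of 9 macrophage markers was 15.2 to 44.4 FPKM and that of 8 endothelial markers 13.0 to 22.5 FPKM, with none at 0.

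The first comparison asked what 24 h of SR9009 did before PE. Every one of the 10 genes lay above 0. Their median was 0.43, against -0.01 over 10415 genes, of which 47.2% were above 0. None reached the size of 1 with a range that excluded 0, which 0.499% of genes did as higher and 0.566% as lower. The range excluded 0 in 5 of 10 genes, against 3.95% of all genes. These were Fkbp11 at 0.87 (0.39 to 1.35), Sdf2l1 at 0.77 (0.33 to 1.20), Dnajb9 at 0.61 (0.25 to 0.96), Hspa5 at 0.55 (0.11 to 0.99) and Herpud1 at 0.52 (0.10 to 0.95). The other 5 lay between 0.25 (Pdia4) and 0.34 (Xbp1), and their ranges held 0. Counted from the highest difference of all genes, Fkbp11 ranked 86 and Sdf2l1 118. In the same comparison the 10 cardiomyocyte markers were all below 0 (median -0.50), with a summed level of 9143 FPKM with SR9009 and 12982 with vehicle. The 7 measured macrophage markers were also all below 0 (median -0.74), with C1qa at -1.68 and C1qc at -1.24 called lower, and the whole macrophage list summed to 23.7 FPKM with SR9009 and 44.4 FPKM with vehicle. Smooth muscle markers were all below 0 too, and Smtn at -0.55 (-0.95 to -0.16) had the only range that excluded 0. Fibroblast markers were split. Dpt at -0.79, Tcf21 at -0.65 and Col1a1 at -0.49 had ranges below 0, while Postn, Vim and Dcn lay above 0 with ranges that held 0. Over all genes 5.9% of ranges lay below 0. The part of these cell types in the result was not tested.

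At 4 h of PE the genes parted. Sdf2l1 was higher with SR9009 than with vehicle by 1.39 (0.91 to 1.89) and Fkbp11 by 1.17 (0.67 to 1.70), which makes 2 of 10 called, against 0.499% of 10412 genes called higher. Counted from the highest difference of all genes, Sdf2l1 ranked 24 and Fkbp11 37. Dnajb9 at 0.53 (0.16 to 0.91) and Hspa5 at 0.55 (0.12 to 0.98) also had ranges above 0, so 4 of 10 did, against 4.1% of genes. Herpud1 at 0.01 (-0.39 to 0.42) and Pdia4 at -0.02 (-0.45 to 0.40) showed no difference the bounds could resolve, and Xbp1 was at -0.18 (-0.58 to 0.22). The median was 0.35, against -0.06 for all genes. In total 8 of 10 were above 0, and 9 with each of 3 other scalings, under which Pdia4 turned positive. Cardiomyocyte markers had a median of -0.40 in this comparison and macrophage markers one of -0.96. Of the smooth muscle markers, Cnn1 at -1.43 and Acta2 at -1.16 were called lower, against 109 of 10412 genes, and Rgs5 alone was above 0, at 0.13. The part of these cell types was not tested.

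At 48 h of PE the sign was the opposite. Fkbp11 was lower with SR9009 than with vehicle, at -1.29 (-1.92 to -0.70) and Dnajb9 at -1.13 (-1.50 to -0.76), so 2 of 10 were called lower, against 4.55% of 10408 genes. Over all genes the split was 243 called higher and 474 lower, and 341 and 391 with FPKM rescaled to equal sums. The range lay below 0 in 5 of 10, against 17.3% of genes. The other 3 were Hspa5 at -0.80 (-1.23 to -0.37), Xbp1 at -0.70 (-1.11 to -0.28) and Hsp90b1 at -0.62 (-1.04 to -0.21). Sdf2l1 at -0.43, Manf at -0.41, Creld2 at -0.19, Pdia4 at -0.12 and Herpud1 at -0.08 had ranges that held 0. All 10 were below 0, against 54.7% of all genes, except that Herpud1 came to 0.03 with FPKM rescaled to equal sums. The median was -0.53, against -0.04 for all genes. Of the 10 genes, 5 were thus separated from vehicle at 0 h and 5 at 48 h, and Hspa5, Dnajb9 and Fkbp11 were in both sets with opposite signs. The share of all genes in both sets was not computed, so this overlap describes the 10 genes only. The median of cardiomyocyte markers here was 0.23, that of fibroblast markers 0.55 and that of smooth muscle markers -0.74. Each of these lists held genes on both sides of 0. Opposite to the median of their list, Myl2 (cardiomyocyte) at -0.50, Col1a1 (fibroblast) at -0.46 and Smtn (smooth muscle) at 0.69 had ranges that excluded 0. The part of these cell types was not tested.

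**Figure D2:**
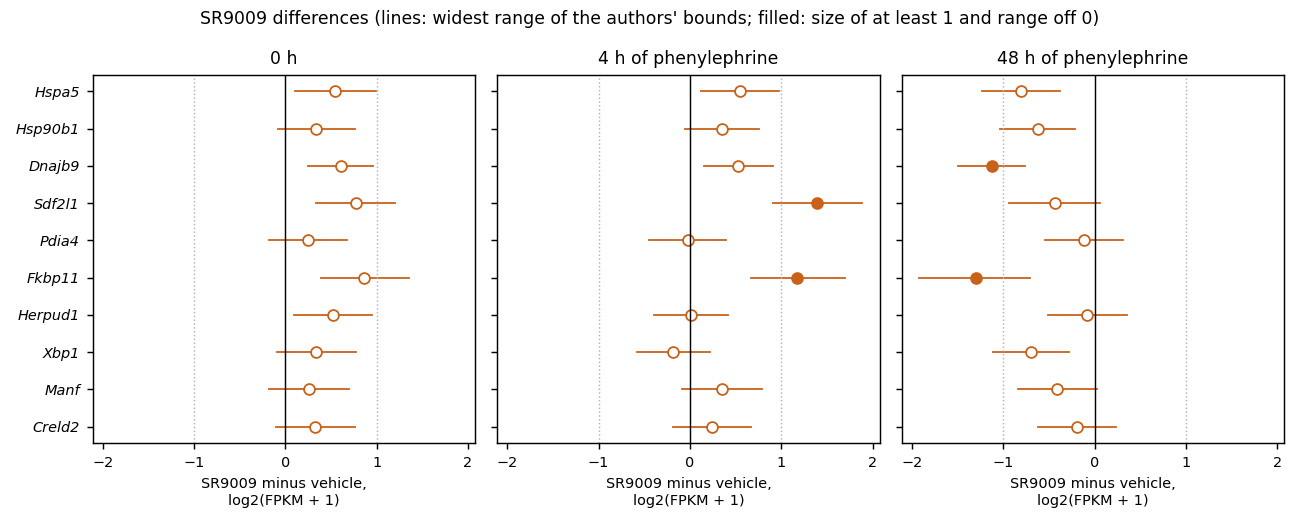
Difference of SR9009 minus vehicle on the log2(FPKM + 1) scale (horizontal axis) for each gene at 0, 4 and 48 h of PE; lines are the widest ranges of the authors' bounds, and filled points have a size of at least 1 and a range that excludes 0. At 0 h all points lie right of 0, at 4 h Sdf2l1 and Fkbp11 stand out at 1.39 and 1.17, and at 48 h all points lie left of 0.

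The response to PE within an arm was described next. The 4 h and 48 h comparisons of an arm share its 0 h group, so their values are given side by side without counting their agreement. After 4 h of PE with SR9009, Herpud1 was lower than at 0 h, at -1.78 (-2.19 to -1.37), Dnajb9 at -1.37 (-1.73 to -1.01) and Pdia4 at -1.06 (-1.49 to -0.64). These are 3 of 10 called lower, against 2.65% of 10408 genes, and the range lay below 0 in 6 of 10, against 16%. In vehicle at 4 h Dnajb9 stood at -1.30 (-1.67 to -0.93), Herpud1 at -1.27 (-1.69 to -0.86) and Sdf2l1 at -1.14 (-1.63 to -0.66), again 3 of 10, against 2.32% of 10418 genes. There the range lay below 0 in 7 of 10, against 14%. With FPKM rescaled to equal sums the calls over all genes were 147 higher and 415 lower with SR9009, in place of 190 and 276, and 198 higher and 407 lower with vehicle, in place of 287 and 242. Every one of the 10 genes was below 0 at 4 h in both arms, with a median of -0.52 in each, against -0.06 over all genes with SR9009 and -0.02 with vehicle. The difference nearest to 0 was that of Hsp90b1 with SR9009, at -0.26 (-0.67 to 0.16), and that of Xbp1 with vehicle, at -0.19 (-0.60 to 0.23). At 4 h cardiomyocyte markers had a median of 0.59 with SR9009, 8 of 10 above 0, and 0.48 with vehicle, 10 of 10 above 0. Fibroblast markers had a median of -0.53 with SR9009, 9 of 9 measured below 0, and -0.63 with vehicle, 8 of 9 below 0. The part of these cell types was not tested.

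At 48 h the arms separated. With SR9009 all 10 genes had ranges below 0 relative to 0 h, against 9.56% of 10409 genes, and 5 were called lower, against 1.16%. Over all genes 131 were called higher and 121 lower, and 111 and 165 with equal sums. Fkbp11 stood at -2.08 (-2.68 to -1.54), Dnajb9 at -1.98 (-2.36 to -1.61), Sdf2l1 at -1.74 (-2.22 to -1.28), Herpud1 at -1.54 (-1.96 to -1.11) and Hspa5 at -1.26 (-1.69 to -0.82). Counted from the lowest difference of all genes, Fkbp11 ranked 14 and Dnajb9 19, and the smallest of the 10 differences was that of Manf at -0.68 (-1.11 to -0.25). With vehicle, 0 of 10 met the size rule at 48 h, which 3.96% of 10416 genes did as lower and 4.87% as higher, and the range was below 0 in 3, against 14.7%. That balance over all genes, 507 higher and 412 lower, became 341 higher and 666 lower with equal sums. These were Herpud1 at -0.93 (-1.36 to -0.51), Sdf2l1 at -0.54 (-1.002 to -0.085) and Pdia4 at -0.49 (-0.92 to -0.06). Herpud1 met the size rule with FPKM rescaled to equal sums (-1.15) and with quantile normalization (-1.14). The vehicle median was -0.14, against 0.01 for all genes, and 4 of 10 were above 0, a count that became 0 with equal sums and 2 with quantile normalization. In the same comparison fibroblast markers had a median of -0.26 in the SR9009 arm and -1.24 in the vehicle arm, and cardiomyocyte markers 1.03 in the SR9009 arm and 0.14 in the vehicle arm. Their part in the result was not tested.

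Between 4 and 48 h of PE the medians of the arms moved in opposite directions. With SR9009, Fkbp11 was lower at 48 h than at 4 h, at -1.80 (-2.40 to -1.25) and Sdf2l1 at -1.23 (-1.71 to -0.75), 2 of 10, against 2% of 10406 genes, and 5 of 10 ranges lay below 0, against 11.9%. Herpud1 at 0.25 and Pdia4 at 0.21 were the 2 genes above 0 in this arm, with ranges that held 0. With vehicle, Dnajb9 was higher at 48 h than at 4 h by 1.04 (0.67 to 1.42), 1 of 10, against 3.85% of 10415 genes. Hspa5 at 0.51 (0.09 to 0.94), Sdf2l1 at 0.60 (0.10 to 1.11) and Fkbp11 at 0.67 (0.13 to 1.22) also had ranges above 0, 4 of 10 in all, against 14.9%. All 10 were above 0 in vehicle, against 50.8% of all genes, with a median of 0.40, against 0.01 for all genes. With SR9009 the median of the 10 was -0.47, against 0.03 for all genes. Fibroblast markers had a median of 0.31 with SR9009, 9 of 9 measured above 0. With vehicle their median was -0.57, with 7 of 9 below 0. There 4 were called lower (Dcn, Lum, Pdgfra and Dpt), against 247 of all 10415 genes. Postn at 0.89 (0.46 to 1.31) and Col1a1 at 0.48 (0.03 to 0.94) went the other way, with ranges above 0. Cardiomyocyte markers had a median of 0.41 with SR9009 and -0.17 with vehicle. The part of these cell types was not tested.

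**Figure D3:**
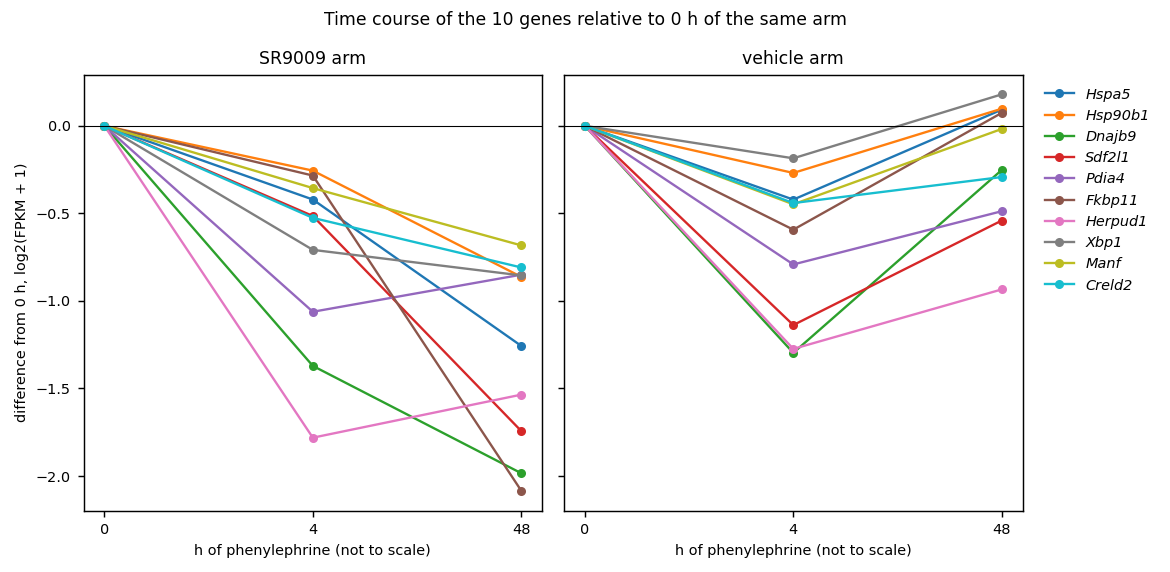
Difference from 0 h of the same arm on the log2(FPKM + 1) scale (vertical axis) at 4 and 48 h of PE, with 1 line per gene, in the SR9009 arm (left) and the vehicle arm (right); times are spaced evenly. Both arms are below 0 at 4 h, after which the lines of the vehicle arm turn up and those of the SR9009 arm, other than Herpud1 and Pdia4, go further down, to -2.08 for Fkbp11.

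An interaction, the PE difference with SR9009 minus that with vehicle, sets the PE responses of the arms against each other. It uses the same groups as the comparisons above, and its ranges are wider, with a median half-width of 0.86 at 48 h. At 4 h it was near 0, with 5 genes above and 5 below, a median of -0.04 and no range that excluded 0. Over all 10394 genes, 0.077% were called higher and 0.346% lower at 4 h, and the range lay above 0 in 0.125% and below 0 in 0.731%. At 48 h all 10 genes were below 0, with a median of -0.997, against -0.03 for all genes, of which 52.5% were below 0. Over all genes 386 were called higher and 555 lower, and 512 and 442 with equal sums. Called lower were 5 of 10, against 5.34% of genes: Fkbp11 at -2.16 (-3.27 to -1.10), Dnajb9 at -1.73 (-2.46 to -1.01), Hspa5 at -1.35 (-2.22 to -0.48), Sdf2l1 at -1.20 (-2.14 to -0.27) and Xbp1 at -1.03 (-1.88 to -0.19). Xbp1 missed the size with each of 3 other scalings, at -0.91, -0.99 and -0.89. With Hsp90b1 at -0.96 (-1.79 to -0.13), 6 of 10 ranges lay below 0, against 7.68% of genes. Pdia4 at -0.36 (-1.22 to 0.50), Creld2 at -0.52, Herpud1 at -0.60 and Manf at -0.66 were not resolved. The interaction at 48 h combines a positive SR9009 difference at 0 h with a negative one at 48 h, and both contribute in Fkbp11 (0.87 and -1.29) and in Hspa5 (0.55 and -0.80). Fibroblast markers had a median interaction of 1.05 at 48 h and cardiomyocyte markers one of 0.46. Of the smooth muscle markers, Cnn1 at -2.33 and Acta2 at -1.18 were called lower and Smtn at 1.24 higher. Des at -0.92 and Tagln at -0.87 also had ranges below 0, and Rgs5 at -0.63 had a range that held 0. Myh11, Mylk and Cald1 lay above 0, with ranges that held 0. The part of these cell types was not tested.

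Further genes of the ER and its stress response were counted in lists chosen by function. Of 108 measured genes outside the 10, 93 were above 0 for SR9009 at 0 h, with a median of 0.20 and 22 ranges above 0 and 0 below 0. Over all genes 3.95% of ranges lay above 0 and 5.9% below. At 48 h of PE, 96 of the 108 were below 0 for SR9009 minus vehicle, against 54.7% of all genes, with a median of -0.40. Of their ranges 49 lay below 0 and 1 above. Over all genes 17.3% of ranges lay below 0 and 11.3% above. By the size rule, 8 of the 108 were lower, against 4.55% of all genes, and 1 was higher, against 2.33% of all genes. The higher gene was the neurotrophic factor gene Cdnf, a relative of Manf, with 12.2 FPKM with SR9009 against 4.47 FPKM with vehicle. The interaction at 48 h had a median of -0.63 over the 108 genes, with 19 called lower and 0 higher, against 5.34% of all genes called lower and 3.71% higher.

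The PERK and ATF4 list had the lowest medians of the 7 lists for SR9009 at 48 h and for the interaction at 48 h. Of its 12 genes, 6 were lower with SR9009 at 48 h and 0 higher, with a median of -0.85, against 4.55% of all genes called lower. Atf4, its central transcription factor, had 351, 224 and 139 FPKM at 0, 4 and 48 h with SR9009, against 268, 284 and 339.7 FPKM with vehicle. Its interaction at 48 h was -1.67 (-2.51 to -0.83). Trib3, a pseudokinase induced by ATF4, had 71.7, 20.9 and 9.30 FPKM with SR9009, against 34.5, 15.5 and 26.1 FPKM with vehicle. Of the 108 genes only Trib3 was called higher with SR9009 at 0 h, at 1.03 (0.63 to 1.43), against 0.499% of all genes. In vehicle the list moved in both directions under PE. Relative to 0 h, 2 of its 12 genes were called higher at 4 h, against 2.75% of all genes, and 2 lower, against 2.32%. Ppp1r15a, a phosphatase subunit that reverses PERK signalling, was higher at 4 h (1.16) and 48 h (1.42), and so was the transcription factor gene Atf3 (1.97 and 2.52). Atf5, another transcription factor gene, was lower at 4 h (-1.09) and 48 h (-1.23), and Trib3 was lower at 4 h (-1.11) and stood at -0.39 at 48 h.

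The median of 10 sensor and activation genes was -0.01 for SR9009 at 0 h and -0.45 at 48 h, and Ern1, which encodes IRE1α, lay between 8.89 and 11.8 FPKM in all groups. Atf6 had 30.0, 27.9 and 17.2 FPKM with SR9009, against 21.8, 20.9 and 28.8 FPKM with vehicle, with an interaction at 48 h of -1.16 (-1.97 to -0.35). Wfs1, of the same list, had 12.3, 16.0 and 16.4 FPKM with SR9009, against 12.5, 11.9 and 32.1 FPKM with vehicle. In vehicle it was called higher at 48 h than at 0 h, at 1.29 (0.89 to 1.69). Of 16 degradation genes, Derl3, which feeds misfolded proteins out of the ER, had 22.3, 16.6 and 2.77 FPKM with SR9009, against 11.4, 5.13 and 4.42 FPKM with vehicle, and it was higher with SR9009 at 4 h by 1.52 (0.95 to 2.14). Of 14 further chaperone genes, Hyou1, a nucleotide exchange factor of BiP, was lower at 48 h than at 0 h with SR9009, at -1.12 (-1.54 to -0.69). Of 18 isomerase and oxidase genes, Ero1b was lower after 4 h of PE in both arms, at -1.28 with SR9009 and -1.18 with vehicle. In the translocon and glycosylation list, 21 of 22 genes were above 0 for SR9009 at 0 h (median 0.36) and 21 of 22 below 0 for the interaction at 48 h (median -0.77), against 47.2% of all genes above 0 and 52.5% below 0 in these comparisons. Called lower for the interaction were 6 of the 22, against 5.34% of all genes, among them Ssr1 at -1.53 and Sec61a1 at -1.34. Of 16 ER to Golgi genes all were below 0 for SR9009 at 48 h, against 54.7% of all genes, with a median of -0.46. Preb was called lower there at -1.13 (-1.60 to -0.66), against 4.55% of all genes.

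**Figure D4:**
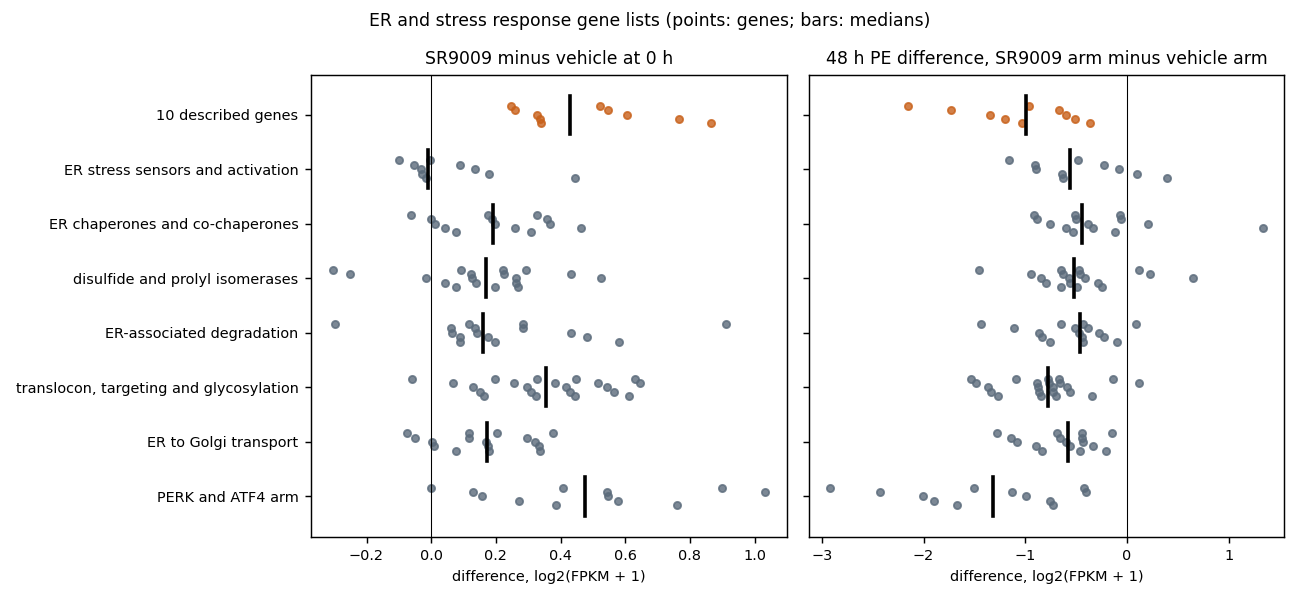
Differences on the log2(FPKM + 1) scale (horizontal axis) for the 10 described genes (orange) and 7 further ER and stress response lists (grey), for SR9009 minus vehicle at 0 h (left) and for the interaction at 48 h of PE (right); points are genes and bars are medians. The medians of the described genes are 0.43 and -0.997, and those of the PERK and ATF4 list 0.48 and -1.32.

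The 10 genes varied together to different degrees. Over the 6 groups, the correlation of a gene's log2 values with the mean of the other 9 was between 0.79 (Xbp1) and 0.98 (Manf), as a description over values that share 2 pretreatments and 3 times. Genes whose pattern was most like the mean of the 10 were sought among 5105 others of at least 5 FPKM on average and a range of at least 0.5. Of these, 51 reached a correlation of 0.9 or more. The 8 highest were Gmppa (0.996), Slc6a9, Trib3, Atg13, Nfxl1, Trmt112, Sesn2 and Adm2 (0.961). Gmppa, a regulatory subunit in GDP-mannose synthesis for glycosylation, had 38.0, 26.5 and 19.9 FPKM at 0, 4 and 48 h with SR9009, against 31.0, 21.6 and 28.1 FPKM with vehicle. The glycine transporter gene Slc6a9 had 43.9, 19.1 and 7.53 FPKM with SR9009, against 21.8, 8.55 and 13.9 FPKM with vehicle. Trib3 and Sesn2 are members of the PERK and ATF4 list.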

How the data were processed

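RNA came from 18 libraries in 6 groups of 3, grouped by sample title. The authors deposited 1 FPKM for every gene and group, with bounds. Per the submitters' processing notes FastQC, Trim Galore, TopHat, Cuffdiff and build rn6 were used, with no versions listed. The sources used here give neither the confidence level, nor the scaling between libraries, nor the depth, nor whether the libraries of a group came from separate cultures. Values without the status OK (31), outside their own bounds (172) or at 0 entered no difference. Differences were computed with pandas 2.3.3 and numpy 2.4.6 for all other genes among the 10545 whose mean was at least 1 FPKM. The call rule was run on simulated data whose noise was drawn from the same bounds. That run cannot show how often the rule errs on these data. The genes, lists and rules were chosen with earlier results of these data known. Named are the 10 genes, some of the list genes that met the size rule (up to 4 per list and comparison) and the 8 most similar patterns. Ern1 and the genes with promoter elements were named after their values were seen. Alternatives were a pseudocount of 0.1, no filter, a mean of at least 5 FPKM, rescaling to equal sums, median centring, quantile normalization and bounds combined in quadrature.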

Additional observations from a re-analysis of the deposited data

How the results depend on the processing

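No paired analysis was possible because the table gives 1 value per group, and leaving out a replicate could not be run for the same reason. Over 7 alternatives, the number of the 10 genes called was the same or within 1.5 times in 75 of 77 values. The exceptions were 48 h of PE in vehicle with FPKM rescaled to equal sums and with quantile normalization, where 1 gene (Herpud1) was called in place of 0. None of the 66 alternative medians of the 10 genes moved by more than the median half-width of the genes' ranges. That limit was wide, 0.43 for a pair of groups and 0.86 for an interaction, so it could show only large moves. Within it, the median for 48 h of PE in vehicle went from -0.14 to -0.35 with equal sums. Of 770 values for single genes 5 crossed the rule, 2 of Herpud1 and 3 of Xbp1, and none of the called ones changed sign. Using no filter or a mean of at least 5 FPKM could change none of these counts, medians or single values. The lowest mean of the 10 genes was 26.1 FPKM (Creld2), so all passed either way. Each of these settings supplied 110 of the 770 values. Rescaling to equal sums shifted the median of all genes by -0.18 for 4 h of PE in vehicle and -0.20 for 48 h, by -0.12 at 4 h with SR9009, by 0.10 for SR9009 at 48 h and by 0.11 for the interaction at 48 h. Relative to that shifted median, the 10 genes stood at -0.52, -0.16, -0.47, -0.48 and -0.95 in these comparisons. Over all genes, a pseudocount of 0.1 gave 97 lower calls in place of 59 for SR9009 at 0 h, 185 in place of 109 for SR9009 at 4 h, 441 in place of 276 for 4 h of PE with SR9009 and 383 in place of 242 for 4 h of PE in vehicle, and 391 higher calls in place of 259 for 48 h against 4 h with SR9009. Equal sums gave 407 and 666 lower calls for 4 h and 48 h of PE in vehicle, in place of 242 and 412, and 415 in place of 276 for 4 h with SR9009. Depth is unknown, and the precision is that of the authors' bounds.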

Other observations

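The promoter elements found in 5 of the 10 genes also occur elsewhere. Outside the 10, 18 genes that passed the filter on mean FPKM had ERSE or ERSE-II within 250 bases upstream of their start, and 6 of them belong to the further ER lists: Calr, Canx, Derl3, Dnajc3, Ero1b and Hyou1. Those 6 were all above 0 for SR9009 at 0 h, between 0.26 (Calr) and 0.91 (Derl3), and all below 0 for SR9009 at 48 h of PE, between -0.93 (Ero1b) and -0.17 (Hyou1). Most of the further ER genes counted above had these signs too, and of 88 with a window only these 6 held an element. Over the 18 genes the median SR9009 difference was 0.27 at 0 h, with 12 above 0, and -0.44 at 48 h, with 15 below 0, against -0.01 and -0.04 for all genes. The other 12 genes did not share 1 pattern. Birc5 and Cdc45, genes of cell division and DNA replication, were at -0.01 and -0.20 for SR9009 at 0 h and at -1.44 and -0.90 at 48 h, while Nucb1 was at 0.11 and 0.48. These genes were found after the values of the 10 were known, and no test was made.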
